A study of Mus musculus with 12 samples.

Results

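This account covers 10 genes of the transcriptional machinery that sets oxidative and lipid metabolism in fat, out of 23420 genes counted in inguinal white adipose tissue (iWAT) of mice. They are the peroxisome proliferator-activated receptors Ppara, Pparg and Ppard, the retinoid X receptors Rxra and Rxrg, the PGC-1 coactivators Ppargc1a and Ppargc1b, the estrogen-related receptors Esrra and Esrrg, and the corepressor Nrip1. They were picked by name for these functions, with earlier results of these data known, and all 10 passed the filter on low counts. RNA of whole iWAT was sequenced from 12 male C57BL/6 mice aged 10 weeks, with 4 groups of 3. Floxed HIF2α (Epas1) alleles were present in all mice: WT mice had no Cre, and HIF2α AKO mice had Adipoq-Cre, which is active in adipocytes, so that Cre and the deletion always came together and other cells of the pad kept HIF2α. Each genotype was kept either thermoneutral (TN, 30 °C for 1 week) or cold (4 to 6 °C for 3 days). The comparisons ask how these regulators differ between cold and TN in each genotype and between the genotypes at each temperature.

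PPARs are nuclear receptors that are activated by fatty acids and bind DNA as pairs with an RXR. PPARγ is the master regulator of adipocyte formation, PPARα drives fatty acid oxidation, and PPARδ is broadly expressed. PGC-1α and PGC-1β bind no DNA themselves but are recruited by PPARs, ERRs and other factors and raise the transcription of mitochondrial and thermogenic genes, while RIP140, the product of Nrip1, is recruited by many of the same receptors and represses them. In beige adipocytes, the heat-producing cells that appear in iWAT in cold, β-adrenergic signals act through PKA and the factor CREB on the promoter of Ppargc1a.

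Libraries held between 22368316 and 35204631 counts on genes, and levels are CPM (counts scaled to a common library size by TMM), with 3 mice per group wherever a mean ± SD is given. The summed level of 7 markers of thermogenic adipocytes, Ucp1 among them, was between 14.2 and 76.1 CPM in the 6 TN libraries and between 3348 and 8663 CPM in the 6 cold ones. The summed level of 8 adipocyte markers, all detected in every library, ran from 13190 to 31850 CPM at TN and from 28000 to 54030 CPM in cold. By the test used below, 4 of these 8 were called higher in cold in WT and 2 in HIF2α AKO, against 15.6% of all genes in each. In HIF2α AKO 6 of the 8 were fitted higher, and the lowest log2 fold change was -0.40. The sum of 6 fibroblast and adipocyte progenitor markers ran from 2342 to 3033 CPM at TN and from 1525 to 2075 CPM in cold. Sums of lymphocyte markers were 880 to 1433 CPM at TN and 510.8 to 897.5 CPM in cold. Sums of macrophage and of endothelial markers overlapped between the temperatures in WT but not in HIF2α AKO. There the macrophage sums were 1840 to 1957 CPM at TN and 1110 to 1246 CPM in cold. The endothelial sums were 963 to 1088 CPM at TN and 1157 to 1286 CPM in cold. Of 12 skeletal muscle markers, the sum was 1543 CPM in TN HIF2α AKO replicate 2 and 1257 CPM in cold HIF2α AKO replicate 1, against 12.3 to 91.7 CPM in the other 10 libraries. Epas1 itself was at a like or higher level under the HIF2α AKO label, with 360 ± 76.8 CPM in TN WT, 348 ± 53.8 in TN AKO, 627 ± 101 in cold WT and 826 ± 139 in cold AKO, so counts over the whole gene do not check the genotype label, and genotypes are given as labelled.

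Promoter sequences of 3 genes are shown because they carry short motifs tied to the pathways above. They come from RefSeq on GRCm38.p6, each from 250 bases before to 50 bases after a start site, 5′ to 3′ on the gene's strand, and capitals mark the motif. Ppargc1a (chr5:51567676-51567975, minus strand) holds CGTCA, the half-site of the cAMP response element that CREB binds, at position -49 from the start, and CACGT, the core that hypoxia-inducible factors recognise, overlaps it at -51. Ppara (chr15:85735526-85735825, plus strand) holds the same half-site as TGACG at -222, and a downstream start of Rxrg (chr1:167618015-167618314, plus strand) holds AGGTCA, the half-site of nuclear receptors, at -88.
Ppargc1a: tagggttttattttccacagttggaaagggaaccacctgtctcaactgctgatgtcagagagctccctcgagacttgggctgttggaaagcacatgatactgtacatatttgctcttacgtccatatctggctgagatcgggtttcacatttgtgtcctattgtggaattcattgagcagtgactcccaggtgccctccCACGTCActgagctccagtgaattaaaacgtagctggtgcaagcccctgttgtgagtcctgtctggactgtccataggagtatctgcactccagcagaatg
Ppara: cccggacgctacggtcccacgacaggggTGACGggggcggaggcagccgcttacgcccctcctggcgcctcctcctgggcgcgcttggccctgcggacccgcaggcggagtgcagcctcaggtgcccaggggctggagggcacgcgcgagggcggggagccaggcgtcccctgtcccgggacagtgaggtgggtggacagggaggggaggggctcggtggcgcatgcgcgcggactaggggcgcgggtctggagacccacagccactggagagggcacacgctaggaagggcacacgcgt
Rxrg: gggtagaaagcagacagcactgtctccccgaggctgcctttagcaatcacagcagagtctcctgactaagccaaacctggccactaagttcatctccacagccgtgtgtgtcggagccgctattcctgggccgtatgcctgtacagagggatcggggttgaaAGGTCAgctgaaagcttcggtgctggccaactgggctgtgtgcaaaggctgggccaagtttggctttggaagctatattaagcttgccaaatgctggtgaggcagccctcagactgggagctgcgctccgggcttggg
Of the 10 genes, 9 had such windows, 17 in all, and motifs were searched on both strands. The half-site TGACG was in 3 of these windows, in Ppara, Ppard and Ppargc1a, and in 20.8% of all 32851 promoters. The half-site AGGTCA was in 4 windows, of Pparg, Rxra and Rxrg, against 16.3% of all promoters, and ACGTG was in 3, of Ppargc1a, Ppard and Esrrg, against 19.6%. The full cAMP response element TGACGTCA, the ERR element TCAAGGTCA and the repeat of AGGTCA with 1 base between the copies (DR1), the kind of site that PPAR-RXR pairs bind, were in 0 of the 17 windows and in 1.79%, 0.423% and 0.04% of all promoters. The motifs were chosen after the promoters had been read, and a match is a description of letters, not of binding.

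In WT mice, 8 of the 10 genes rose in cold and 0 fell, where 15.6% of the 15306 genes tested were called higher and 5.68% lower. The largest rise was that of Ppara, 10.0-fold, followed by Ppargc1a at 5.91-fold, Esrrg at 5.19-fold, Ppargc1b at 4.10-fold and Esrra at 3.05-fold. Rxrg, Pparg and Rxra rose by smaller factors, and Ppard and Nrip1 did not pass the test. In HIF2α AKO mice, 6 of the 10 genes rose and 0 fell, against 15.6% of all genes called higher and 11.5% lower, and these were Ppara, both PGC-1 genes, both ERR genes and Rxrg. Calls are edgeR quasi-likelihood tests with Benjamini-Hochberg adjusted p below 0.05 over all genes. Because the tissue was sequenced whole, changed cell numbers and changed RNA per cell cannot be told apart in any of these values.

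**Figure D1:**
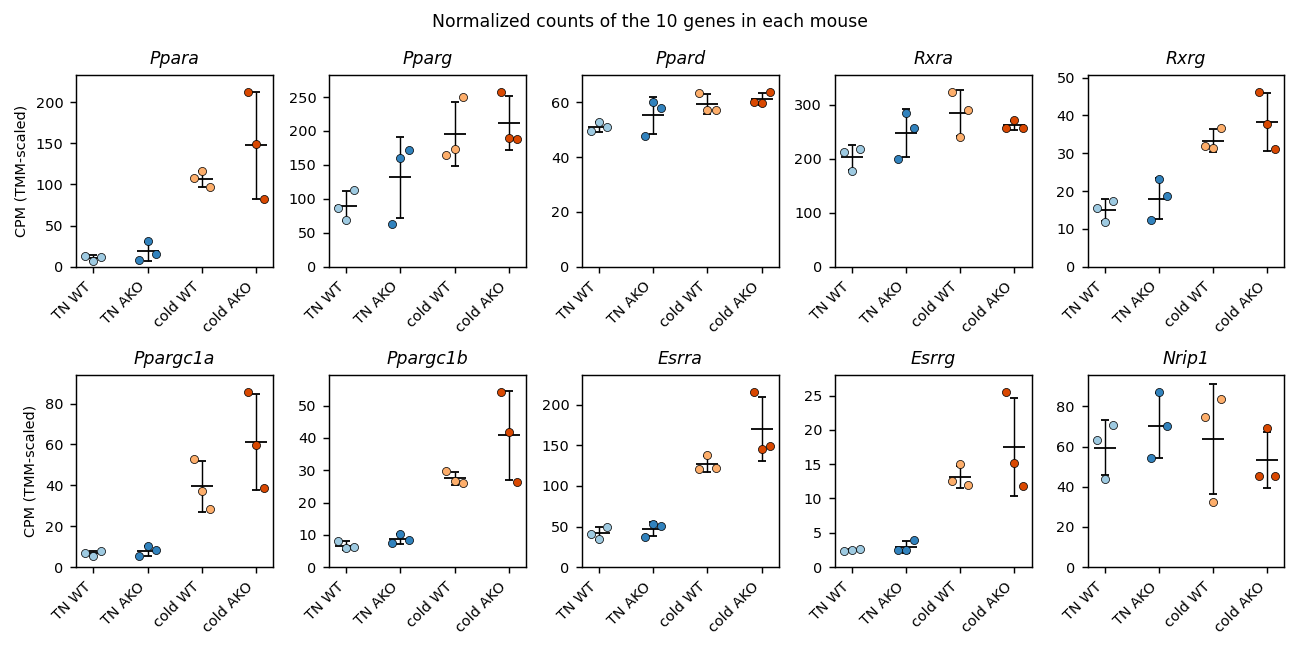
Normalized counts (CPM, y axis from 0) of each gene in each of the 12 mice, by group (x axis); points are mice in replicate order from left to right, and the bar and whiskers are the mean and SD of 3 mice. The cold and TN mice stand apart for Ppara, both PGC-1 genes and both ERR genes, while Ppard, Rxra and Nrip1 lie within narrower or overlapping ranges.

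Ppara, the receptor that drives fatty acid oxidation, spans chr15:85734983-85802819 on GRCm38. Its level was 12.7, 6.82 and 12.4 CPM in the TN WT mice and 108, 116 and 96.9 CPM in the cold WT mice. In HIF2α AKO mice it was 8.49, 31.5 and 16.05 CPM at TN and 212, 149 and 82.0 CPM in cold. The cold mice were all above the TN mice of their genotype, and the highest value of each temperature in the AKO mice came from the library with the most muscle marker RNA. The log2 fold change of cold against TN was 3.33 (SE 0.48, adjusted p = 0.00144 by edgeR) in WT and 2.98 (SE 0.47, adjusted p = 0.00155) in HIF2α AKO.

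Pparg, the regulator of adipocyte formation and of lipid storage genes (chr6:115360951-115490399), stood at 86.3, 68.8 and 113 CPM in TN WT and at 164, 173 and 250 CPM in cold WT. Its TN AKO mice were spread more widely, at 63.1, 160 and 173 CPM, below 257, 190 and 188 CPM in cold AKO. Both genotypes kept cold above TN without overlap, but only the WT change passed the test, with a log2 fold change of 1.13 (SE 0.34, adjusted p = 0.0367 by edgeR) against 0.68 (SE 0.33, adjusted p = 0.14) in HIF2α AKO. The WT call was lost when any of 5 of the 12 libraries was left out, with a log2 fold change from 0.92 to 1.34 and an adjusted p from 0.00669 to 0.141: TN WT replicates 1 and 2, cold WT replicates 2 and 3 and cold AKO replicate 2. The summed adipocyte markers were lowest at TN in TN WT replicate 2 and TN AKO replicate 1, at 13190 and 19130 CPM. The same mice were lowest at TN for Pparg. Of these markers, Adipoq, Plin1, Fabp4, Lpl and Cidec are also among the PPAR targets listed below, so the sum is no separate measure of adipocyte content. The part of adipocyte content in the change was not tested.

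Ppard, the broadly expressed PPAR (chr17:28232700-28301474), was nearly level, at 49.4, 52.7 and 51.0 CPM in TN WT and 63.5, 57.2 and 57.0 CPM in cold WT. The cold WT mice were all above the TN WT mice, by a margin that did not pass the test (log2 fold change 0.22, SE 0.094, adjusted p = 0.116 by edgeR). In HIF2α AKO the groups overlapped, at 47.6, 60.1 and 58.1 CPM against 60.04, 59.7 and 63.7 CPM, with a log2 fold change of 0.15 (adjusted p = 0.251).

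Rxra, an obligate partner of PPARs (chr2:27676440-27762957), was at 212, 176 and 218 CPM in TN WT and at 323, 239 and 289 CPM in cold WT. Its rise in WT was 0.49 on the log2 scale (SE 0.15, adjusted p = 0.0424 by edgeR). This call was lost without any of 8 of the 12 libraries (log2 fold change 0.38 to 0.57, adjusted p 0.0249 to 0.159): TN WT replicates 1 and 2, TN AKO replicate 3, cold WT replicates 1 and 3 and all 3 cold AKO replicates. In HIF2α AKO the values overlapped, at 200, 285 and 257 CPM against 257, 272 and 257 CPM, and the log2 fold change was 0.08 (SE 0.15, adjusted p = 0.704). Rxrg, the RXR with the narrower tissue range (chr1:167598384-167639623), was at 15.6, 11.7 and 17.5 CPM in TN WT against 32.0, 31.4 and 36.7 CPM in cold WT, and at 12.3, 23.2 and 18.6 CPM against 46.2, 37.7 and 31.0 CPM in HIF2α AKO. Cold and TN mice did not overlap in either genotype, and the log2 fold changes were 1.16 (adjusted p = 0.00631) and 1.08 (adjusted p = 0.00731). The remaining RXR, Rxrb, had log2 fold changes of 0.15 in WT and 0.10 in HIF2α AKO and was not called.

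Ppargc1a encodes PGC-1α, the coactivator best known for mitochondrial biogenesis and thermogenesis, and lies at chr5:51454250-51567726. It was at 6.88, 5.48 and 7.64 CPM in TN WT and at 52.7, 37.5 and 28.2 CPM in cold WT. In HIF2α AKO it was at 5.26, 10.1 and 8.27 CPM at TN and at 85.5, 59.8 and 38.6 CPM in cold. Every cold mouse was above every TN mouse, with a wide spread among the cold ones. The log2 fold change was 2.56 (SE 0.34, adjusted p = 0.000991 by edgeR) in WT and 2.95 (SE 0.34, adjusted p = 0.000328) in HIF2α AKO.

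Ppargc1b encodes PGC-1β, a coactivator of ERRs that supports basal mitochondrial gene expression. Its level was 8.17, 5.79 and 6.07 CPM in TN WT and 29.8, 26.7 and 25.9 CPM in cold WT, and 7.40, 10.2 and 8.48 CPM against 54.1, 41.7 and 26.4 CPM in HIF2α AKO. Again no cold mouse fell among the TN mice. The log2 fold changes were 2.04 (SE 0.24, adjusted p = 0.000681 by edgeR) and 2.23 (SE 0.24, adjusted p = 0.000268). The third family gene, Pprc1, had log2 fold changes of -0.29 (adjusted p = 0.185) in WT and -0.47 (adjusted p = 0.047) in HIF2α AKO. The latter call was lost without both muscle-high libraries (-0.50, adjusted p = 0.121), with median-of-ratios scaling (adjusted p = 0.0511), without the filter on low counts (adjusted p = 0.0623) and without any one of TN WT replicate 1, TN AKO replicates 1 and 3, cold WT replicate 1 and the 3 cold AKO replicates (-0.37 to -0.50, adjusted p 0.0604 to 0.169). Its exons overlap those of Ldb1 on the opposite strand, and whether the counting used strand is not given in the sources used here.

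Esrra encodes ERRα, an orphan receptor on promoters of mitochondrial genes (chr19:6910977-6921813). Its level was 41.3, 34.1 and 49.7 CPM in TN WT and 121, 138 and 122 CPM in cold WT, and 37.6, 53.5 and 50.6 CPM against 215, 146 and 149 CPM in HIF2α AKO. Cold and TN mice were well apart, with log2 fold changes of 1.61 (SE 0.19, adjusted p = 0.000691 by edgeR) and 1.85 (SE 0.19, adjusted p = 0.000234). Its exons overlap those of Trmt112 on the opposite strand, whose own log2 fold change in WT was -0.12 (adjusted p = 0.486).

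Esrrg encodes ERRγ, a receptor of highly oxidative tissues (chr1:187608791-188214885), and had the lowest level of the 10, at 2.39, 2.54 and 2.66 CPM in TN WT and 12.5, 14.95 and 11.9 CPM in cold WT. In HIF2α AKO it was at 2.45, 2.42 and 3.89 CPM against 25.5, 15.1 and 11.8 CPM. The lowest library still held 63 counts of it, and no cold mouse overlapped the TN mice. Its log2 fold changes were 2.37 (SE 0.28, adjusted p = 0.000691 by edgeR) in WT and 2.58 (SE 0.29, adjusted p = 0.000308) in HIF2α AKO.

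Nrip1, the corepressor (chr16:76287400-76373827), had a different pattern. It was at 63.4, 44.1 and 70.9 CPM in TN WT and 74.8, 32.4 and 83.6 CPM in cold WT, and at 54.4, 87.0 and 70.0 CPM against 45.4, 69.5 and 45.6 CPM in HIF2α AKO. The groups overlapped in both genotypes, and cold WT replicate 2 was the lowest of all 12 mice. The log2 fold changes were 0.10 (95% interval -0.62 to 0.82) and -0.40 (95% interval -1.12 to 0.32), wide enough to hold changes of either direction.

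**Figure D2:**
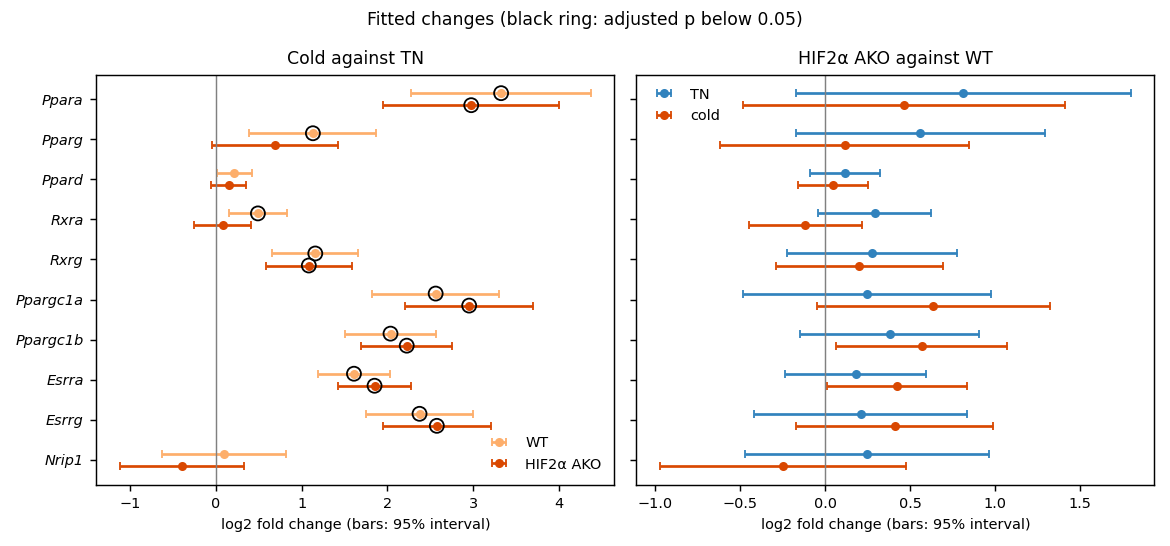
Fitted log2 fold changes (x axis) of the 10 genes with 95% intervals, for cold against TN in each genotype (left) and HIF2α AKO against WT at each temperature (right); black rings mark adjusted p below 0.05. Rings stand at 8 genes in WT and 6 in HIF2α AKO on the left and at none on the right.

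Without overlap between groups, 9 of the 10 genes were higher in cold in WT, against 22.7% of all genes tested, and 7 of 10 in HIF2α AKO, against 24.9%. Over both genotypes together, which uses the same 12 mice, 9 of the 10 genes were called higher, against 24.8% of all genes. There the smaller changes of Pparg (log2 fold change 0.91, adjusted p = 0.00998 by edgeR), Rxra (0.29, adjusted p = 0.0463) and Ppard (0.18, adjusted p = 0.0424) passed the test, and the calls of Rxra and Ppard were each lost in 9 of the 12 fits that left out 1 library. Nrip1 remained uncalled, at -0.15 (adjusted p = 0.607). Of all genes called in WT, 73.3% were higher in cold with TMM scaling and 42.6% with upper quartile scaling, which moved the median of all genes from -0.03 to -0.17. For HIF2α AKO these shares were 57.5% and 42.4%, and over both genotypes 50.9% and 35.6%. Of the calls above, upper quartile scaling ended those of Rxra in WT and of Rxra and Ppard over both genotypes.

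Levels of different genes can be compared only per length, as CPM per kilobase of exon. In TN WT the highest were Rxra at 37.0 and Pparg at 30.3, whose mice overlapped, followed by Esrra at 9.51, Ppard at 6.79, Rxrg at 6.50 and Nrip1 at 5.19. Ppara at 2.78, Ppargc1b at 1.67, Ppargc1a at 1.01 and Esrrg at 0.408 were the lowest. In cold WT the order was Pparg at 66.3 and Rxra at 52.0, again overlapping, then Esrra at 29.0 and Ppara at 27.9, which overlapped too, Rxrg at 14.5, Ppard at 7.88, Ppargc1b at 6.89, Ppargc1a at 5.98, Nrip1 at 5.55 and Esrrg at 2.12. Ppara thus passed Nrip1, Rxrg and Ppard between TN and cold, and the neighbours Ppargc1b, Ppargc1a and Nrip1 overlapped in cold. The order rests on the length of all exons, 4387 bases for Esrra and 7514 for Ppard. Their longest transcripts have 2489 and 3726 bases, and the order by that length is not given here.

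The make-up of the families differed between temperatures, given here as the share of a family's summed CPM per kilobase and with no test. Ppara made up 6.90 ± 1.49% (SD, n = 3) of the PPAR total in TN WT and 27.8 ± 5.45% in cold WT, and 8.35 ± 2.99% and 31.5 ± 7.59% in HIF2α AKO. Pparg remained the larger part, at 75.5 ± 3.42% and 64.4 ± 6.62% in WT. Among the PGC-1 genes, Ppargc1a went from 7.99 ± 1.83% to 27.9 ± 4.57% in WT and Ppargc1b from 13.1 ± 2.61% to 33.1 ± 4.43%, while Pprc1, whose exons overlap those of Ldb1, went from 78.9 ± 3.81% to 39.0 ± 4.75%. In HIF2α AKO these 3 genes went from 8.43 ± 2.91%, 15.3 ± 3.07% and 76.3 ± 5.95% to 33.1 ± 5.004%, 36.6 ± 4.21% and 30.3 ± 9.11%. Rxrg made up 10.7 ± 1.27% of the RXR total in TN WT and 17.2 ± 1.96% in cold WT. Esrrg made up 4.18 ± 0.704% and 6.75 ± 0.304% of the ERR total, so that Esrra accounted for most of it at both temperatures.

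**Figure D3:**
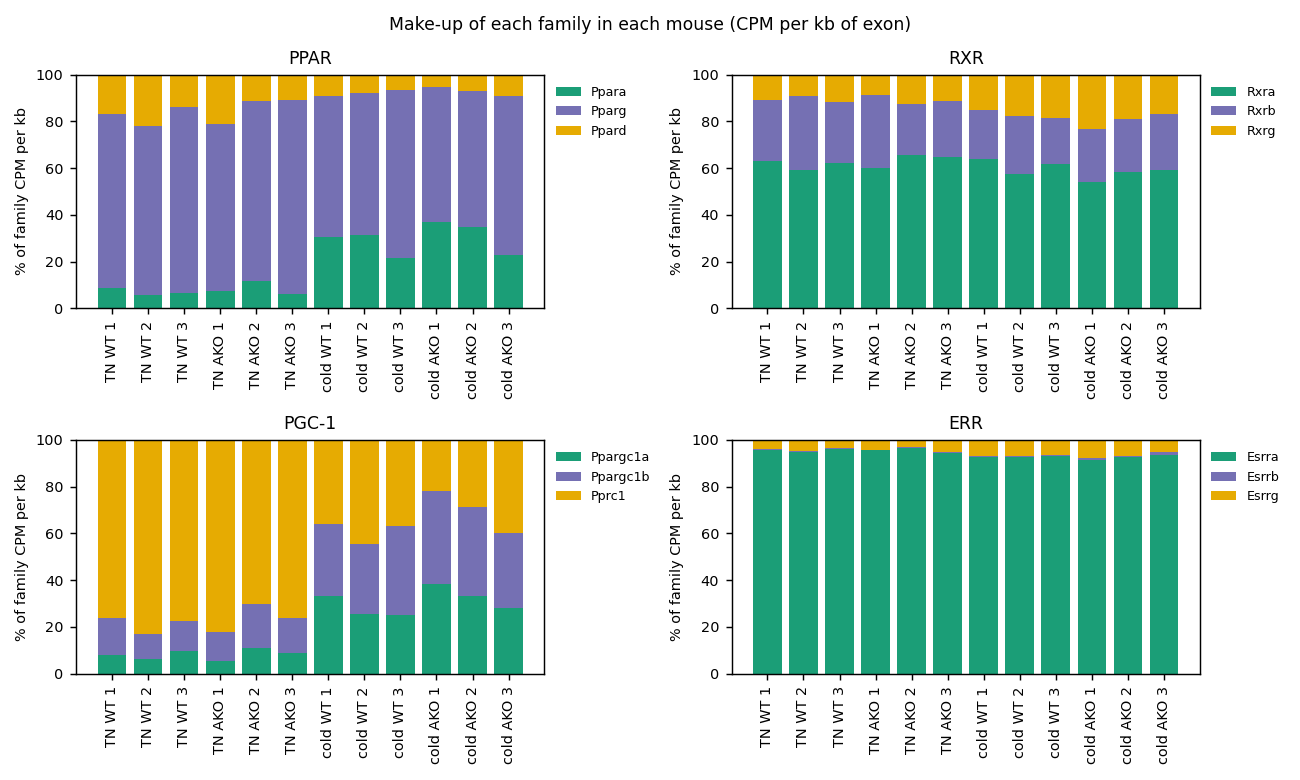
Share of each family's summed CPM per kilobase of exon (y axis, percent, stacked to 100) taken by each gene in each of the 12 mice (x axis). The Ppara, Ppargc1a and Ppargc1b parts are larger in every cold mouse than in every TN mouse, whereas the ERR bars are nearly all Esrra.

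Most listed targets of these regulators rose in cold in both genotypes, while the listed partners had medians near that of all genes. Of 34 listed PPAR target genes, 25 were called higher and 0 lower in WT, where 15.6% of all genes were called higher and 5.68% lower, and their median log2 change was 2.00, against -0.03 over all genes tested. Of 29 tested targets, of 30 listed, of PGC-1 and ERRs, 25 were called higher and 0 lower, with a median of 1.69. In HIF2α AKO the tests called 24 of 34 higher (median 2.26) and 28 of 29 higher (median 1.79), and 0 lower in both lists, against 15.6% of all genes higher, 11.5% lower and a median of -0.05. The PPAR target Fgf21, 1 of the 25 called higher in WT, was under 10 counts in every TN library and passed the filter only through the cold ones. Among 21 partners and coregulators, Esrrb included, 2 were called higher and 1 lower in WT, with a median of 0.02. Both shares were below those of all genes in this fit, but not in every other fit. Esrrb was 1 of the 2 called higher and passed the filter only through the cold libraries, so its call is counted here but not otherwise used. In HIF2α AKO 4 partners were higher and 7 lower, with a median of -0.03, the latter a larger share than the 11.5% of all genes. These counts changed with the libraries used: without both libraries high in muscle markers they were 2 higher and 0 lower, without TN AKO replicate 1 or cold AKO replicate 1 they were 2 and 1, and the lower count was 2 without TN AKO replicate 3 or cold AKO replicate 2, 3 without TN WT replicate 1 or cold WT replicate 1 and 4 when cold WT replicate 2 was left out. Over all genes, calls in HIF2α AKO numbered 4138 with all libraries and 1514 without both libraries high in muscle markers. They numbered 1735 without TN AKO replicate 1 and 1613 without cold AKO replicate 1. The higher count of partners in WT was 4 without TN WT replicate 3, TN AKO replicate 1 or TN AKO replicate 2. All genes called in WT then numbered 3722, 3343 and 3112, against 3259 with all libraries. Thermogenic marker genes Ucp1 and Cidea are among the listed PPAR targets, and Cox7a1 and Cox8b among those of PGC-1 and ERRs.

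Ucp1, the uncoupling protein that makes heat, was at 0.204, 0.446 and 0.648 CPM in TN WT and at 2238, 3506 and 2171 CPM in cold WT. Fabp3, a fatty acid carrier of oxidative tissues, was at 0.306, 0.514 and 0.136 CPM against 405, 580 and 309 CPM. Gyk, glycerol kinase, which lets adipocytes reuse glycerol to re-esterify fatty acids, rose 25.6-fold (log2 fold change 4.68, SE 0.27, adjusted p = 1.99e-05 by edgeR). Cidea, a lipid droplet protein of brown and beige fat, rose 23.3-fold (4.54, SE 0.55, adjusted p = 0.000706). The hormone gene Fgf21 was scarce throughout, at 0.127, 0 and 0.102 CPM in TN WT and 2.10, 1.37 and 0.684 CPM in cold WT.

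Of the PGC-1 and ERR targets, Cox7a1 and Cox8b, subunits of cytochrome oxidase, rose 47.9-fold and 18.1-fold in WT (adjusted p = 0.000448 and 0.000597 by edgeR). Idh3a, a subunit of isocitrate dehydrogenase, rose 5.94-fold, and Fndc5, the precursor of irisin, rose 5.88-fold from 3.08, 2.02 and 1.74 CPM to 7.83, 17.8 and 14.96 CPM. Among the partners, Lpin1, a phosphatidate phosphatase that also coactivates PPARα with PGC-1α, rose 3.69-fold (log2 fold change 1.88, SE 0.36, adjusted p = 0.00536). Esrrb, the third ERR, stood at 0.178, 0.206 and 0.205 CPM in TN WT and 1.07, 0.940 and 0.644 CPM in cold WT; it had at most 7 counts in any TN library and passed the filter only through the cold ones, so its values are given without a test. Sirt1, a deacetylase that acts on PGC-1α, fell by 0.43 on the log2 scale (SE 0.12, adjusted p = 0.0267). This call was lost without TN WT replicate 2 (adjusted p = 0.0934), cold WT replicate 1 (adjusted p = 0.0521) or cold WT replicate 3 (adjusted p = 0.0874).

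**Figure D4:**
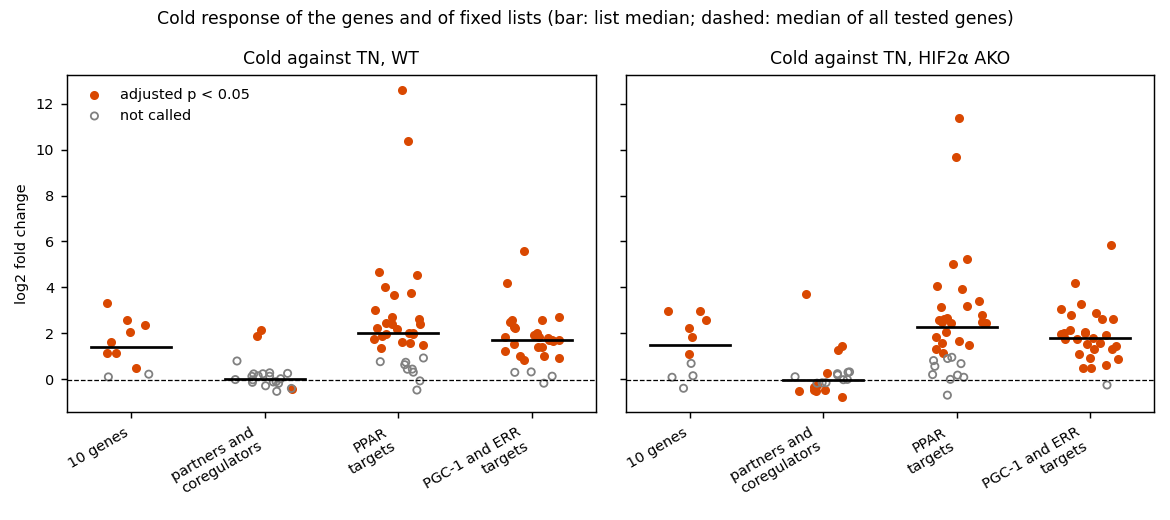
Log2 fold changes of cold against TN (y axis) in WT (left) and HIF2α AKO (right) for the 10 genes and 3 gene lists; each point is a gene, filled where adjusted p was below 0.05, bars are list medians and the dashed line is the median of all 15306 genes. The medians of both target lists lie between 1.69 and 2.26, and those of the partners lie near the dashed line.

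Between genotypes in cold, 0 of the 10 genes passed the test by edgeR, DESeq2 or voom, where 0.00653% of all genes, a single one, was called by edgeR. At an unadjusted p below 0.05, 2 of the 10 genes, Ppargc1b and Esrra, were higher in HIF2α AKO by edgeR, where 1.68% of all genes were. That count was 0 without cold WT replicate 3 or cold AKO replicate 1. It was 1 without TN WT replicate 1, TN AKO replicate 3, cold WT replicate 2 or cold AKO replicate 2, and 4 without cold AKO replicate 3. Over all genes, 451 met this limit in either direction with all libraries. Without cold WT replicate 3, cold AKO replicate 1 or cold AKO replicate 3, this number was 937, 220 or 725. By DESeq2 and voom, 3 and 1 of the 10 genes met the limit, against 543 and 1177 of all genes. The largest difference was that of Ppargc1a, at a log2 fold change of 0.64 (SE 0.31, 95% interval -0.05 to 1.32), followed by Ppargc1b at 0.57 (0.06 to 1.07), Ppara at 0.46 (-0.48 to 1.41), Esrra at 0.42 (0.01 to 0.83) and Esrrg at 0.41 (-0.17 to 0.99). Rxrg was at 0.20, Pparg at 0.11, Ppard at 0.05, Rxra at -0.12 and Nrip1 at -0.25, and the median of the 10 genes was 0.30 against -0.02 over all genes. Esrra was the only one of the 10 whose HIF2α AKO mice were all above the WT mice in cold, as were 3.80% of all genes. The study's own thresholds are a log2 fold change beyond 0.2 in either direction with an unadjusted p below 0.15, set on DESeq2 values. With them applied here to the edgeR fit of all 12 libraries, 4 of the 10 genes were higher, against 4.74% of all genes. These were Ppargc1a, Ppargc1b, Esrra and Esrrg.

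The differences were smaller without cold HIF2α AKO replicate 1. That library was the highest of the 6 cold ones for 7 of the 10 genes, as it was for 19.4% of all genes, and it had the highest sums of muscle markers (1257 CPM) and of thermogenic markers (8663 CPM, against 5650 and 5938 CPM in the other cold AKO mice and 3348 to 4904 CPM in cold WT). Without it, 0 of the 10 genes met the study's thresholds, and the log2 fold changes were 0.32 for Ppargc1a, 0.31 for Ppargc1b, 0.21 for Esrra, 0.11 for Ppara, 0.04 for Esrrg and -0.05 for Pparg. The count was 2 without cold WT replicate 3 and between 3 and 5 without any one of the other 10 libraries. Counts over all genes moved too. At an unadjusted p below 0.05 by edgeR, 451 genes met the limit with all libraries. That number was 220 without cold AKO replicate 1 and 937 without cold WT replicate 3. The share of all genes at the study's thresholds is given only for the fit of all 12 libraries. The part of muscle RNA in the values of cold AKO replicate 1 was not tested.

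At TN, 0 of the 10 genes passed the test between genotypes, where 0.00653% of all genes was called. At an unadjusted p below 0.05 the count was 0 by edgeR, where 446 genes, 2.91% of all tested, met it. It was 0 by DESeq2, where 559 genes met it, and 3 by voom, where 1473 did. Without TN AKO replicate 1 it was 5 by edgeR, where 644 genes met it. Fitted differences ran from 0.12 for Ppard to 0.81 for Ppara (SE 0.45, 95% interval -0.17 to 1.80), with 0.56 for Pparg (-0.17 to 1.29), and the median was 0.26 against 0.01 over all genes. Ppara stood at 0.21 without TN HIF2α AKO replicate 2, the other library high in muscle markers, which was the highest of the 6 TN ones for 8 of the 10 genes, as for 25.4% of all genes. TN WT replicate 2 and TN AKO replicate 1 were the lowest pair for 7 of the 10 genes, as for 22.2% of all genes, and also for the adipocyte and thermogenic marker sums.

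The interaction asks whether the cold change differed between genotypes, and 0 of the 10 genes and 0% of all genes were called by edgeR. At an unadjusted p below 0.05 the count was 0 of the 10 genes by edgeR, where 2.14% of all genes met it. The count was 2 without TN AKO replicate 1 or cold WT replicate 2, where 323 and 499 of all genes met it, against 327 with all libraries. DESeq2 and voom with all libraries called 0 of the 10. Fitted differences of the cold change ran from -0.50 for Nrip1 (95% interval -1.52 to 0.53) to 0.39 for Ppargc1a (-0.61 to 1.39). The loss of the Pparg and Rxra calls in HIF2α AKO is therefore not shown to be a difference between genotypes, with -0.45 (-1.48 to 0.59) for Pparg and -0.41 (-0.88 to 0.06) for Rxra.

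For 3 of the regulators, the genes with the most similar log2 CPM over the 12 libraries were named as a description, since the points fall into 2 temperatures. Pearson's r with Ppargc1a was 0.989 for Alkbh7, 0.988 for Pald1 and 0.988 for Fgf9. Within the 6 cold libraries these values were 0.900, 0.894 and 0.917, and within the 6 TN libraries 0.978, 0.794 and 0.854. Pparg was closest to Ppp1r3d (0.991), Fam217b (0.978) and Plxna2 (0.976), with 0.903, 0.875 and 0.974 in cold and 0.996, 0.964 and 0.994 at TN. Esrrg was closest to Ciapin1 (0.986), Pdss1 (0.985) and Ankrd9 (0.985), with 0.905, 0.905 and 0.858 in cold but 0.636, 0.512 and 0.473 at TN, where Esrrg was scarce.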

How the data were processed

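Gene counts of 12 iWAT libraries were used as the authors deposited them, without normalization. The submitters' processing notes name Trim Galore 0.4.4, STAR 2.6.1d, HTSeq 0.13.5, DESeq2 1.30.0 and the build GRCm38 (mm10); the annotation and strand setting are not given in the sources used here, and isoforms were not resolved. The series table and the sample tables held the same counts (0 values differed), and 5 tally rows outside genes, which held 21.9 to 27.0% of the reads listed per library, were left out. The tools were edgeR 4.0.16, DESeq2 1.42.0 and voom of limma 3.58.1 in R 4.3.3. Genes were kept with filterByExpr (minimum count 10, minimum total 15), which left 15306, and a quasi-likelihood model of 4 groups was fitted to TMM-scaled counts (common biological coefficient of variation 0.202). P-values were adjusted over all genes. Log2 CPM used a prior count of 2, and exon lengths came from a GRCm38 annotation.

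The 10 genes and the lists were chosen with earlier results of these data known. Named from each list were up to 5 genes per direction with the largest called change and no overlap in WT, and for Ppargc1a, Pparg and Esrrg the 3 genes most alike; a gene that met the rule is not reported here. Labels do not say whether mice were littermates or handled together, so p-values measure the spread between these mice. Same-numbered replicates did not pair. The script was tested on simulated counts. Alternatives were other scalings, filters, tools and samples in the fit, the study's thresholds, and each library left out; leaving out both muscle-high libraries was chosen after seeing the data.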

Additional observations from a re-analysis of the deposited data

How the results depend on the processing

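With 3 mice a group, only changes well above the spread of these mice can be called, and the calls of Ppara, Ppargc1a, Ppargc1b, Esrra, Esrrg and Rxrg in cold against TN were kept in both genotypes under every alternative run. Replicate numbers did not pair the mice: 5 of 18 same-numbered pairs had correlated deviations above 0.1 (range -0.43 to 0.39), and 3 libraries were closest to their own number. With the replicate block, 7 regulators were called in WT, 6 in HIF2α AKO, 7 over both genotypes and 0 in the other comparisons. In that fit 3 partners were lower in HIF2α AKO. It called 2561 of all genes in WT, 3313 in HIF2α AKO and 6729 over both genotypes. The main fit called 3259, 4138 and 7467, so fewer genes were called with the block in each of these comparisons. In WT, partners called higher were 6 by DESeq2 and by voom. Partners called lower were 4 with upper quartile scaling and 2 by DESeq2 and by voom. With 1 library left out they ranged from 2 to 4 and from 0 to 1. Of all genes, 4591 were called in WT by DESeq2, 4684 by voom and 4370 with upper quartile scaling, against 3259 in the main fit. Of these calls 62.9%, 65.7%, 42.6% and 73.3% were higher in cold. In HIF2α AKO, partners called lower were 4 with median-of-ratios scaling and 3 without the filter, partners called higher were 7 by DESeq2 and by voom, and 1 PGC-1 or ERR target was lower by voom; without both muscle-high libraries partners were 2 higher and 0 lower, and with 1 library left out 2 to 6 and 1 to 7. The study's thresholds on edgeR values gave 4 genes in cold between genotypes, and 0 without both muscle-high libraries. Of all genes, 451 and 224 had an unadjusted p below 0.05 by edgeR in these fits.

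Uncalled changes that turned sign were, for cold against TN, Nrip1 in WT (-0.0397 with upper quartile scaling, -0.20 by voom, -0.15 to 0.39 with 1 library left out), Rxra in HIF2α AKO (-0.00663 with upper quartile scaling, -0.0524 to 0.20 with 1 library left out) and Nrip1 over both genotypes (-0.27 to 0.0058 with 1 library left out). Between genotypes, they were Nrip1 in cold (0.0884 by voom), Pparg in cold (-0.0511 without both muscle-high libraries, -0.0512 to 0.33 with 1 left out) and Esrrg at TN (-0.0530 to 0.33). In the interaction they were Esrrg (-0.21 by voom, -0.30 without both muscle-high libraries, -0.17 to 0.46 with 1 left out), Ppard (0.00839 without both), Rxrg (-0.29 to 0.15), Ppara (-0.71 to 0.26) and Ppargc1b (-0.0695 to 0.42). By the longest transcript instead of all exons, Esrrg made up 2.78, 2.80, 4.53 and 4.40% of the ERR total in TN WT, TN AKO, cold WT and cold AKO, and Ppara 5.25% and Pparg 70.9% of the PPAR total in TN WT. The cause of these changes was not tested.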
